A study of Bos taurus with 8 samples.

Results

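Pregnancy-associated glycoproteins (PAGs) are secreted proteins of the aspartic protease family that the trophoblast of ruminants makes, and their appearance in maternal blood is the basis of pregnancy tests in cattle. Many of them have lost residues that a protease needs, and their function is not settled. The bovine genes are commonly divided into an ancient group, here PAG2, PAG8, PAG11 and PAG12, whose products are made widely over the trophectoderm, and a modern group, here PAG4, PAG5, PAG6 and PAG7, which is known from the binucleate cells of the placenta. The 8 genes are described below by member and by cell line, out of 12602 genes that could be named on the arrays. They were chosen by name: a probe belongs to a member if its accession is a RefSeq transcript of that gene. By this rule, 28 of 43637 probes stood for the 8 members, 8 of them for PAG2, 4 each for PAG6 and PAG7, 3 each for PAG5, PAG11 and PAG12, 2 for PAG8 and 1 for PAG4.

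Stem-like cells derived from bovine embryos (eSLCs) and, beside them, somatic cells of the body (SCs), all of HanWoo cattle, were profiled on 8 one-colour Agilent arrays. eSLCs are colonies grown from blastocysts without zona pellucida on mitotically inactivated mouse STO feeder cells, in a medium with the inhibitors PD184352, SU5402 and CHIR99021, and the SCs grew in DMEM with serum. In vitro produced (IVP) embryos gave the lines I2 (passage 35) and I9 (passage 30), nuclear transfer (NT) embryos N2 (passage 36) and N7 (passage 30), and parthenogenetic (PA) embryos P1 (passage 31) and P4 (passage 36), while the SCs were taken at passage 5 (SC P5) and passage 10 (SC P10). With 2 arrays per condition precision is limited, and the sources used here do not say whether the SC arrays come from separate cultures, so that p-values measure only the spread between these samples.

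Signals are given as normalised signal, the background-subtracted intensity of a probe with the 75th percentile of its array set to 1000. That percentile lay between 1191 and 4086 scanner units, 75.2 to 136 times the lowest signal that the scanner software marked as well above background, and 71.2% to 76.7% of spots per array carried that mark. The labelled cell types were checked with markers, by the limma test described below. Over all genes tested, 2155 of 10957 were called higher in eSLCs and 1720 lower. All 7 measured trophectoderm markers were higher in eSLCs, and their summed signal was 363274 to 1074607 on the eSLC arrays and 2339 to 3616 on the SC arrays. Of 8 fibroblast markers, 7 were lower in eSLCs, with a summed signal of 5455 to 10659 there and 653265 to 808994 in SCs. The epiblast markers NANOG and POU5F1 did not pass the test and SOX2 was lower in eSLCs, with an epiblast sum of 110.3 to 1031 in eSLCs and 483 to 580 in SCs. Of the hypoblast markers, PDGFRA was lower in eSLCs and GATA4 and SOX17 did not pass the test, with a sum of 2024 to 7013 in eSLCs and 7936 to 9050 in SCs. N7 stood apart from the other lines in some of these markers, with GATA4 at 2922 (23.2 to 180 in the others), PDGFRA at 1424 (42.6 to 276) and POU5F1 at 899 (30.8 to 101). The part of feeder RNA in the signals was not tested.

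All 8 members were well above background on every eSLC array and, except PAG8, on neither SC array. PAG2, the member with the most probes, had a normalised signal of 74919 in I2, 160032 in I9, 275001 in N2, 38080 in N7, 146103 in P1 and 118864 in P4 at its brightest probe. PAG11 had 27021 in I2, 142332 in I9, 221725 in N2, 38929 in N7, 71620 in P1 and 38187 in P4. In both genes N2 and I9 were the highest lines, and neither probe was well above background on an SC array. PAG12 had 8761 in I2, 42578 in I9, 47652 in N2, 4016 in N7, 13564 in P1 and 14084 in P4, again with N2 and I9 on top and N7 lowest.

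PAG8 behaved differently within the ancient group. Its brightest probe gave 33289 in I2, 42841 in I9, 52708 in N2, 19260 in N7, 95545 in P1 and 30501 in P4, so that the highest line was P1. It was also well above background in SCs, at 36.7 in SC P5 and 61.8 in SC P10. The groups were far apart all the same, since the lowest eSLC line lay at 19260.

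The modern members PAG4, PAG6 and PAG7 resembled PAG12 in which lines were high and low. PAG4 had 4704 in I2, 35465 in I9, 27495 in N2, 3524 in N7, 5039 in P1 and 6533 in P4. PAG6 had 7094 in I2, 36353 in I9, 41164 in N2, 3987 in N7, 13486 in P1 and 11850 in P4. PAG7 had 8260 in I2, 41000 in I9, 42505 in N2, 5925 in N7, 13280 in P1 and 11530 in P4. Thus I9 and N2 exceeded the other 4 lines in all of these, and N7 was the lowest.

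By the brightest probe of each gene, PAG5 had the widest range of the members. Its brightest probe gave 247 in I2, 39693 in I9, 38432 in N2, 5585 in N7, 8169 in P1 and 1088 in P4. I9 was therefore 161-fold above I2, the other line from an IVP embryo, and N7 was not the lowest line. In none of the 8 genes did an eSLC array overlap with an SC array.

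**Figure D1:**
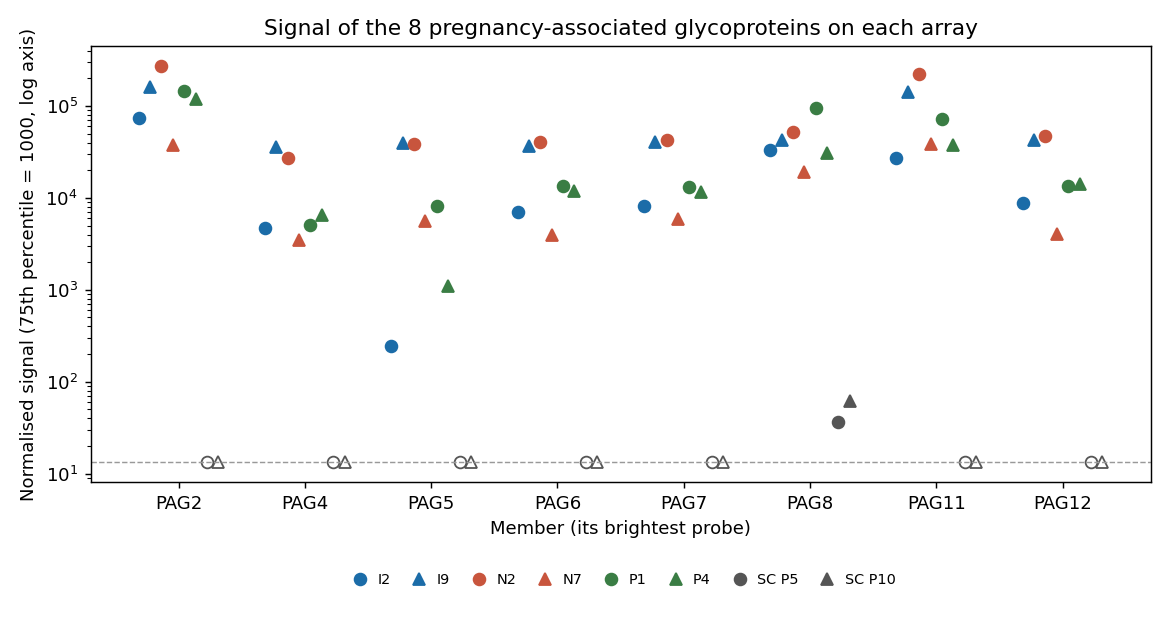
Normalised signal (log axis, 75th percentile of each array = 1000) of the brightest probe of each member on the 8 arrays, 1 point per array, with colour for the condition and shape for the line. Open points are not well above background and stand at the dashed line, the floor of 13.3 used for log2 values. PAG8 alone has filled SC points, at 36.7 and 61.8, and PAG5 has its lowest eSLC points in I2 (247) and P4 (1088).

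The question whether eSLCs differ from SCs was put to all named genes in 1 limma fit. A gene was called at a Benjamini-Hochberg adjusted p under 0.05 and a difference of at least 2-fold, on log2 signals raised to a common floor of 13.3. All 8 members were called higher in eSLCs, where 19.7% of the 10957 genes tested were. Their median log2 difference was 10.09, beside 0.23 over all genes tested. The 7 members other than PAG8 entered the test through their eSLC arrays alone. Their SC values stood at the floor, so that only a higher call was open to them. For the 7 members with both SC arrays below the mark, only a lower bound of the fold can be given, from the lowest signal well above background on each SC array. In the ancient group it was at least 13682-fold for PAG2 (adjusted p 7.1e-05 in limma), 8055-fold for PAG11 (adjusted p 0.00016) and 1857-fold for PAG12 (adjusted p 0.00063). In the modern group it was at least 1844-fold for PAG7 (adjusted p 0.00037), 1652-fold for PAG6 (adjusted p 0.0006), 1082-fold for PAG4 (adjusted p 0.0008) and 619-fold for PAG5 (adjusted p 0.015). The fit itself raises SC signals to the common floor of 13.3, which is above the marks of SC P5 (8.60) and SC P10 (8.05), so that its log2 differences for these 7 genes, 8.60 to 13.06, are smaller than the bounds. PAG8, measured on both sides, was higher by 9.72 ± 0.57 on the log2 scale (SE, 6 eSLC and 2 SC arrays, adjusted p 8.1e-05 in limma). In bulk samples, fewer cells of a type and less RNA per cell cannot be told apart.

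The call of PAG5 was the least firm. Its SE on the log2 scale was 1.98, against 0.57 to 1.01 for the other members, and it was lost without SC P5 (adjusted p 0.13 in limma), without SC P10 (adjusted p 0.12) and with both SC arrays as 1 sample (adjusted p 0.13). With SC values at the floor, the spread of 7 members in SCs is 0 in the fit, so their SE rests on the eSLC lines. Within slide 1, which held I2, I9, N7 and SC P5, the differences of the 8 members were 8.16 to 12.50 on the log2 scale, and within slide 2, which held N2, P1, P4 and SC P10, they were 9.04 to 13.63. A separate column of the scanner files, the processed signal, gave a different result: only PAG8 was called with it, and PAG4 and PAG7 had log2 differences of -0.14 and -0.20. Over all genes it called 271 of 10533 higher, where the main fit called 2155 of 10957. In 6 of the 8 files that column had a Spearman correlation of 0.161 to 0.216 with the background-subtracted signal, and 0.971 and 0.973 in N2 and I2. The authors' own normalised table, whose correlation with the background-subtracted signal was 0.96 to 0.98 on all arrays, again gave all 8 members as higher.

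Each origin was then compared with SCs. All 8 members were called higher in IVP-eSLCs (17.7% of genes tested), in NT-eSLCs (15.8%) and in PA-eSLCs (20.3%). These comparisons share the SC arrays, and for members other than PAG8 again only a higher call was open. PAG2 lay 13.01 ± 0.90 above the SC floor in IVP-, 12.91 ± 0.90 in NT- and 13.28 ± 0.90 in PA-eSLCs on the log2 scale (SE, 2 arrays each). PAG8 lay 9.63 ± 0.70, 9.39 ± 0.70 and 10.15 ± 0.70 above its measured SC level. PAG5 again had the weakest calls, with limma's adjusted p at 0.048 for IVP-, 0.024 for NT- and 0.046 for PA-eSLCs, and these calls were lost when single arrays were left out (adjusted p in limma up to 0.20, 0.15 and 0.21). For IVP-eSLCs this was so for each array but I2, and for NT- and PA-eSLCs for each array but I2 and I9.

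**Figure D2:**
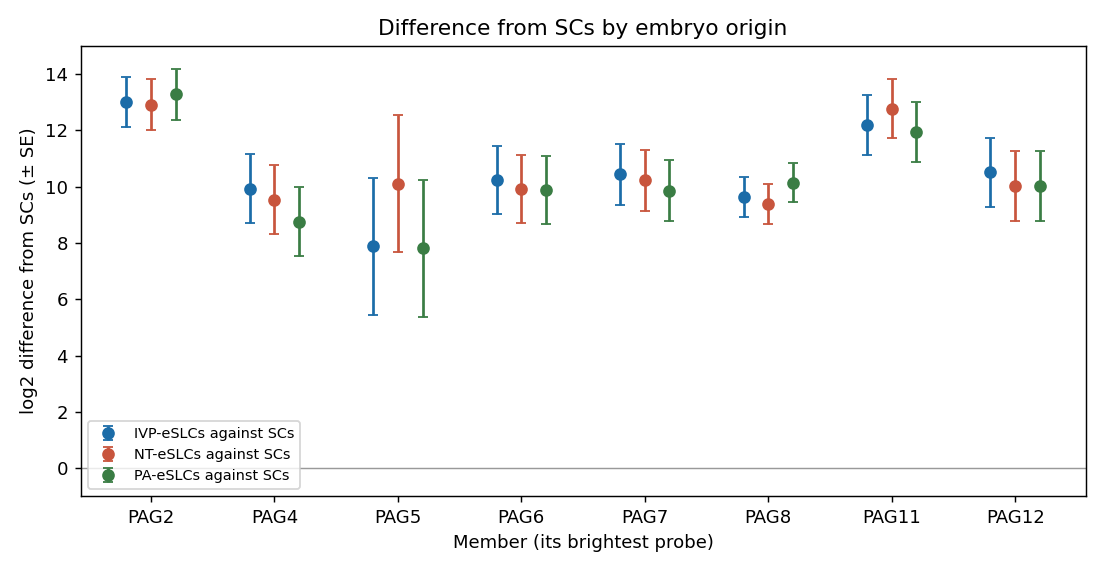
Difference of the log2 normalised signal between the eSLCs of each origin and SCs for the brightest probe of each member, with points for the fitted difference and bars for its SE (2 arrays per origin and 2 SC arrays). For members other than PAG8 the SC level is the floor of 13.3, so the height is set in part by it. The bars of the 3 origins overlap for every member, and PAG5 has the widest bars.

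The 3 origins were not told apart by any member. Limma's F test over the 3 origins called 0 of 8 members and 0% of the genes tested (0 of 10957, with 587 genes at an unadjusted p under 0.05, none of them a member). The unadjusted p of the members lay between 0.571 and 0.95. The analysis of variance in place of limma gave 428 genes before adjustment and 0 after, with 0 members each time, and with the authors' normalised table the F test called 146 genes and 0 members. IVP lines were hybridized on slide 1 alone and PA lines on slide 2 alone. For this pair of origins the slide can be set apart only through the NT lines and SCs, which lay on both slides. With the slide as a block, the F test called 0 members.

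Lines of the same origin were often far apart. Among IVP lines, I9 exceeded I2 by 7.54-fold for PAG4, 5.27-fold for PAG11 and 2.14-fold for PAG2. Among NT lines, N2 exceeded N7 by 11.9-fold for PAG12, 10.3-fold for PAG6 and 2.74-fold for PAG8. The PA lines lay closer, with P1 and P4 within 1.30-fold for PAG2, PAG4, PAG6, PAG7 and PAG12. They were 7.51-fold apart for PAG5 and 3.13-fold apart for PAG8. All these folds are of the brightest probe. The dimmer PAG5 probes gave 1819 and 423 in P1, beside 2021 and 1066 in P4. Over all 9877 genes well above background and above the floor on all 6 eSLC arrays, the median fold between lines was 1.26 for IVP, 1.37 for NT and 1.25 for PA.

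The SD of log2 signals over the 6 eSLC arrays shows the same spread in 1 number. It was 0.78 for PAG8, 0.99 for PAG2, 1.19 for PAG7, 1.20 for PAG11, 1.31 for PAG6, 1.36 for PAG12, 1.42 for PAG4 and 2.89 for PAG5, and its median over the 9877 genes was 0.35. PAG8, the steadiest member, varied more than 87.5% of those genes, and PAG5 more than 99.9%. These SDs are of the brightest probe of each gene. The dimmer PAG5 probes had SDs of 1.26 and 1.12, within the range of the other members. I9 and N2 were the highest lines for 7 of the 8 members and for 14.3% of all those genes. N7 was lowest for 6 members and for 29.2% of the genes, and the part of the cells behind its GATA4, PDGFRA and POU5F1 signals was not tested. Without N7, all 8 members were still called higher in eSLCs against SCs. I9 and N2 share neither slide nor origin nor passage. The 75th percentile was 2837 units in I9 and 1191 in N2, the lowest of the 8 arrays, and the share of spots well above background was 76.5% in I9 and 71.2% in N2, again the lowest. The part of array quality in the order of the lines was not tested.

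A second layer of the data is the set of probes behind each gene. Of the 28 member probes, 25 were well above background on all 6 eSLC arrays, 2 on some and 1 on none. The limma fit over all probes called 25 of the 27 that could be tested higher in eSLCs, where 17% of the 34414 probes tested were. Except for the PAG8 probes, their SC values stood at the floor, so that only a higher call was open. The 3 member probes not called were of PAG6 and PAG7. The third probe of PAG6 by brightness gave 29.6 in I2, 25.8 in I9, 80.7 in N2, 2.37 in N7, 18.2 in P1 and 210 in P4, and the fourth was well above background on no array, although the first reached 41164 in N2. The fourth probe of PAG7 did not exceed 46.2 on any array. Levels of different probes are not comparable as abundances, but the lines can be compared within each probe.

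**Figure D3:**
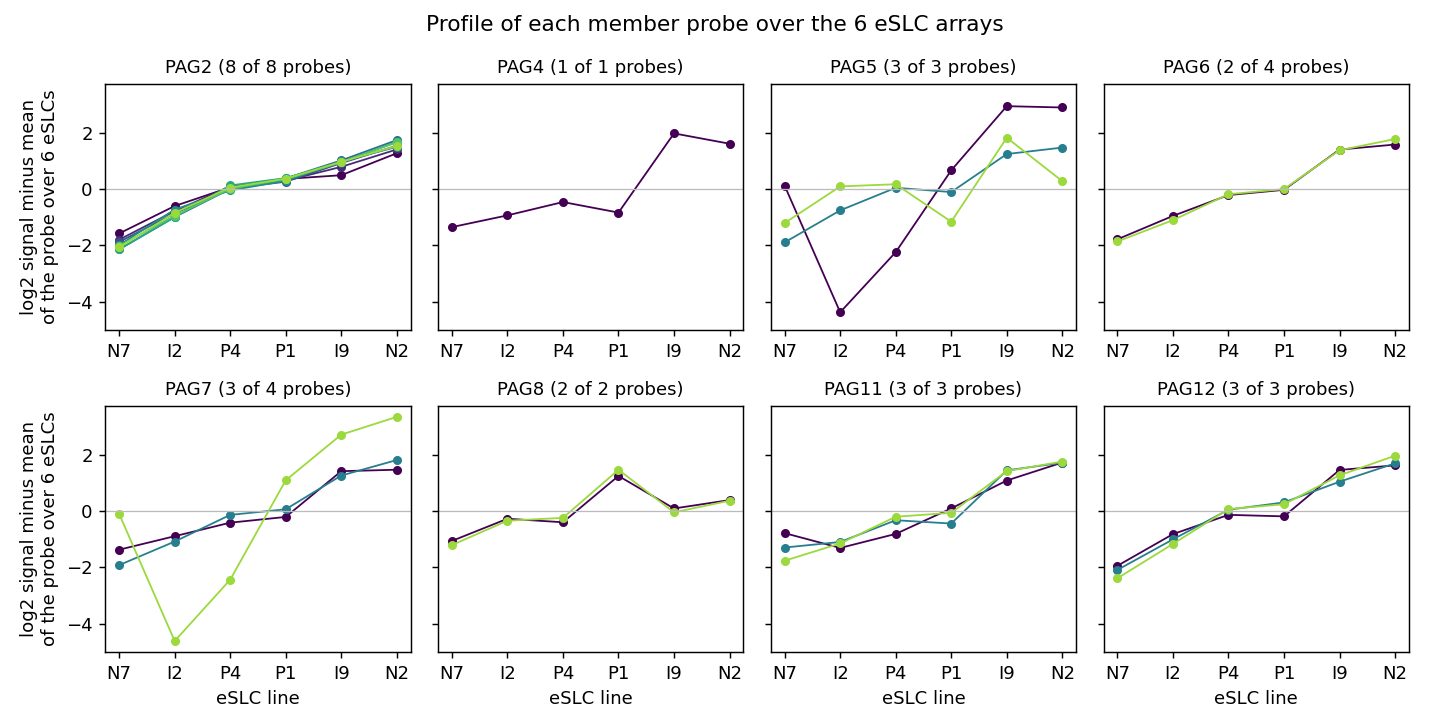
Profile of each member probe over the 6 eSLC lines, as log2 normalised signal minus the mean of the probe over these lines, for the 25 probes well above background and above the floor on all 6 arrays, 1 curve per probe with the brightest darkest. Lines are placed in a fixed order from N7 to N2. The 8 curves of PAG2 nearly coincide, PAG8 peaks in P1, and 1 probe each of PAG5 and PAG7 dips in I2 and P4.

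Profiles were compared by Pearson r of the log2 signals over the 6 eSLC arrays, as a description, since the probes share these arrays. The 8 probes of PAG2 had r of 0.988 to 1.000 with each other, and each gave a bound of at least 1929-fold over SCs. The 2 probes of PAG8 had r = 0.990, and its second probe gave 1477 in I2, 1816 in I9, 2418 in N2, 811 in N7, 5181 in P1 and 1584 in P4, with 53.1 in SC P5 and 53.4 in SC P10. P1 was thus the highest line in both PAG8 probes.

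The 3 probes of PAG5 and the 3 brighter probes of PAG7 did not share 1 profile per gene. The second PAG5 probe gave 1158 in I2, 4639 in I9, 5441 in N2, 526.4 in N7, 1819 in P1 and 2021 in P4, which is the common order with N7 lowest. The third gave 1010 in I2, 3354 in I9, 1151 in N2, 410 in N7, 423 in P1 and 1066 in P4, where only I9 stood out. Among the PAG5 probes r was 0.277 to 0.716. Both lesser probes gave firmer calls than the brightest (adjusted p 0.0026 and 0.0011 against 0.02 in the limma fit over all probes), so that the choice of probe sets how firmly PAG5 is called.

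The third probe of PAG7 gave 201 in I2, 32516 in I9, 50373 in N2, 4618 in N7, 10550 in P1 and 912 in P4. It stands for another RefSeq transcript of the gene than the other 3 PAG7 probes. Its r with them was 0.757 and 0.704 (the fourth was too dim to compare), and its r with the brightest PAG5 probe was 0.995. These 2 probes are the ones with I2 and P4 far below the other lines.

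Some probes of different members had profiles as close as those of probes of 1 gene. The median r was 0.899 between probes of different members and 0.996 within a member. Over all other genes it was 0.833 between probes of 1 gene. Of 258 pairs of probes from different members, 29 had r over 0.99 (11.2%), beside 29 of 42 pairs within a member (69%) and 7.65% of the 16618 pairs of probes of 1 gene over all other genes. No PAG8 probe took part: its r with probes of other members was -0.06 to 0.73, with a median of 0.57, and for the other 7 members the median over 212 pairs was 0.94. Since r is larger where lines differ more, the SD of the log2 ratio of 2 probes over the 6 lines was also taken, which is 0 for probes in a fixed ratio. Its median was 0.223 over pairs of 1 gene among all other genes, and 22 of the 258 pairs from different members fell below that. Of 24 member probes with another probe of their own gene to compare, 16 were closer by this SD to a probe of another family gene. Each had far more probes of other family genes than of its own gene to be compared with. A closer one among the former was thus more likely from numbers alone, and this count does not measure shared signal.

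The closest pair between members was 1 probe each of PAG2 and PAG12, with an SD of 0.050 and r = 1.000. PAG6 and PAG11 had a pair at 0.060, PAG7 and PAG6 at 0.071. No accession stood for more than 1 gene, so that the match of probes to genes was unique by name. Whether a probe also binds transcripts of close members was not tested, since probe sequences were not used here.

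**Figure D4:**
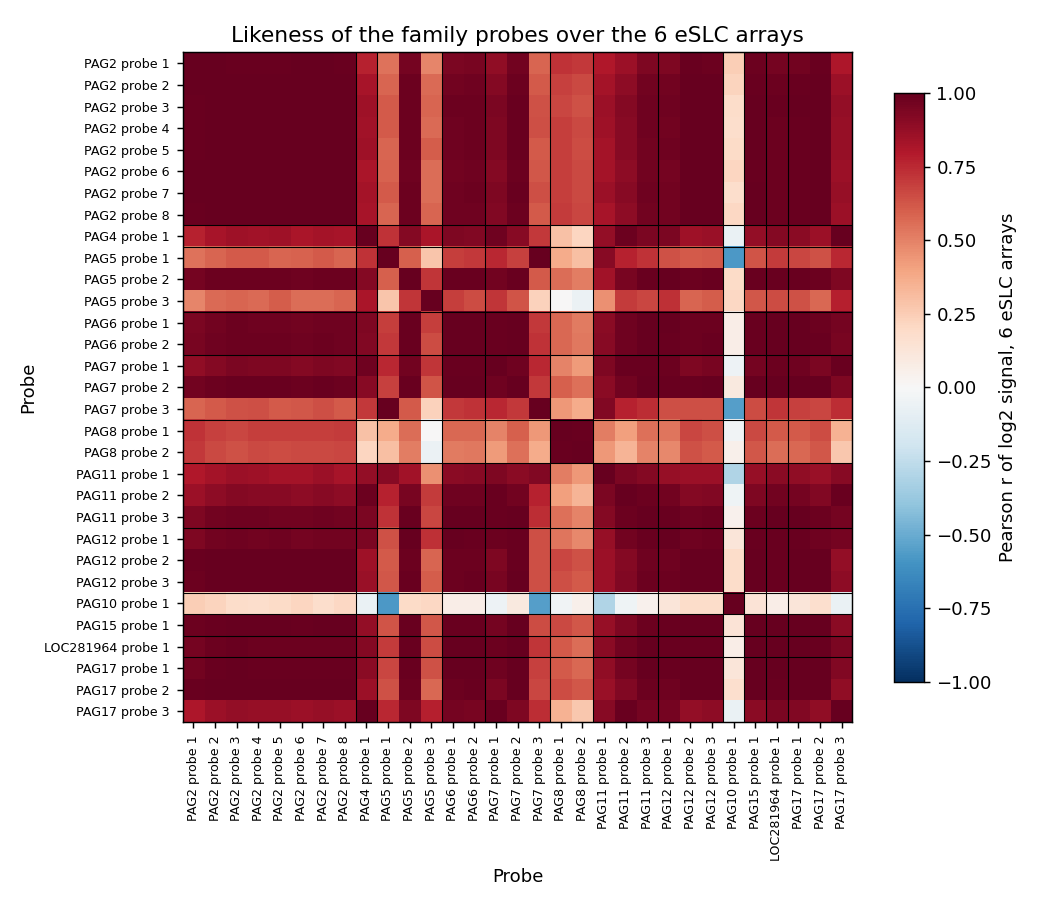
Pearson r of log2 normalised signals over the 6 eSLC arrays between all family probes well above background and above the floor on those arrays, 25 of the members and 6 of other PAG genes, ordered by gene and by brightness (probe 1 the brightest). Black lines part the genes. PAG8, PAG10 and the probes PAG5 1, PAG5 3 and PAG7 3 stand out as pale bands in an otherwise dark red field.

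In the ARS-UCD2.0 assembly, 20 genes of the family lie in 1 stretch of a single chromosome, and PAG2, PAG12 and PAG5 follow each other in their order along it, as do PAG6, PAG11 and PAG8. This order counts family genes alone, and 42 other genes lie between the first and the last of them. Neighbours in this order did not always share a profile: PAG2 and PAG12 probes had a median r of 0.996, PAG11 and PAG8 probes one of 0.469. Of the 12 other family genes, 10 had a probe, 21 in all, and 5 genes could be tested. LOC281964, whose synonym is PAG1, was at least 1832-fold higher in eSLCs (adjusted p 0.00059 in limma), PAG17 at least 1727-fold (adjusted p 0.00064), and PAG15 was also called. These are values of the brightest probe. The SC values of LOC281964, PAG17 and PAG15 stood at the floor, so that for these genes too only a higher call was open. In the fit over all probes, 5 of 12 tested probes of other family genes were called, where 17% of all probes were. Those called also had their SC values at the floor. The dimmer LOC281964 probes (log2 differences 0.43 and 0.40, adjusted p 0.56 and 0.53 in limma) and the second PAG15 probe were not called. Nor was the fourth PAG17 probe (log2 difference 1.32, adjusted p 0.33 in limma). The fifth and sixth PAG17 probes did not enter the test, with signals of at most 50.7 and 19.8 in eSLCs. PAG10 did not pass the test, with a log2 difference of 2.14 ± 1.25 and SC P5 at the floor (SE, adjusted p 0.21 in limma), nor did PAG21 (adjusted p 0.22 in limma), whose signal was 7.81 to 97.6 in eSLCs and not well above background in SCs.

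Some of the dim family probes had another order of lines. PAG10, an ancient member like PAG2, gave 143 in I2, 29.7 in I9, 70.1 in N2, 13.7 in N7, 37.7 in P1 and 654 in P4, with 10.9 in SC P5 and 18.1 in SC P10. Of the 30 family probes with a median of at least 100 over the eSLC arrays, P4 was highest in 0, and of the 16 dimmer ones that were well above background on some eSLC array, P4 was highest in 10. The cut at 100 was chosen after the values were seen, and the share of all dim probes with P4 highest was not taken. Some of the 16 entered through P4 alone, such as 1 probe each of PAG16 and PAG17, so their highest line was set by the filter.

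Other genes of the trophoblast and of the protease family were set beside the members. Over all genes tested, 19.7% were called higher in eSLCs, and 1720 of 10957 were called lower. Of the aspartic proteases outside the PAG family, 0 of 6 tested were called higher and 2 lower, with a median log2 difference of -0.16. BACE2, a membrane protease, was lower in eSLCs by 3.95 ± 0.80 on the log2 scale (SE, adjusted p 0.0096 in limma). Of the products of uninucleate trophectoderm, 5 of 6 tested were called higher, with a median of 12.00. TKDP1, a trophoblast Kunitz domain protein, lay 13.98 ± 0.39 above the floor of 13.3, where both SC arrays stood (SE, adjusted p 6.6e-06 in limma), and PLAC8A was higher by 12.84 ± 0.44 (SE, adjusted p 1.2e-05). Of the trophoblast transcription factors, 7 of 11 tested were called higher, with a median of 2.71, among them GATA3 at 9.76 ± 0.34 (SE, adjusted p 1.2e-05 in limma) and CDX2 at least 1078-fold (adjusted p 7.7e-06). For CDX2, as for TKDP1, both SC arrays stood at the floor, so that only a higher call was open.

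Genes listed here under the binucleate cell gave a mixed picture, and whether the steroid enzymes are particular to that cell was not tested. Of 5 steroid enzymes, 4 were called higher, where 19.7% of all genes tested were, with a median of 4.22. They were led by HSD3B1 at 8.80 ± 0.27 (SE, adjusted p 8.4e-06 in limma) and CYP11A1 at 8.48 ± 0.54 (SE, adjusted p 0.00012), the latter with SC P10 at the floor. Of the secreted products of that cell, the placental lactogen gene CSH2 and 8 prolactin-related genes, 5 were tested and 0 were called, with a median of 1.70. With 5 genes, and 19.7% of all genes called higher, a count of 0 says little. PRP2 gave 343 in I2, 29.2 in I9, 115 in N2, 1.93 in N7, 14.4 in P1 and 895 in P4, and PRP4 gave 321, 25.6, 50.7, 0.954, 18.5 and 795 in the same order. P4 was the highest line for 6 of the 7 genes of this list that were well above background on some eSLC array, and I2 for CSH2. PRP3 entered this count through P4 alone (62.7), and the share over all genes was not taken. The 2 defining markers CSH2 and PRP1 summed to 34.8 to 201 in eSLCs and to 44.5 to 51.7 in SCs, which overlap. The brightest probes of the modern PAG members were highest in I9 and N2, where PRP2 and PRP4 stood below their signals in I2 and P4, and the part of that cell type in the PAG signals was not tested.

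**Figure D5:**
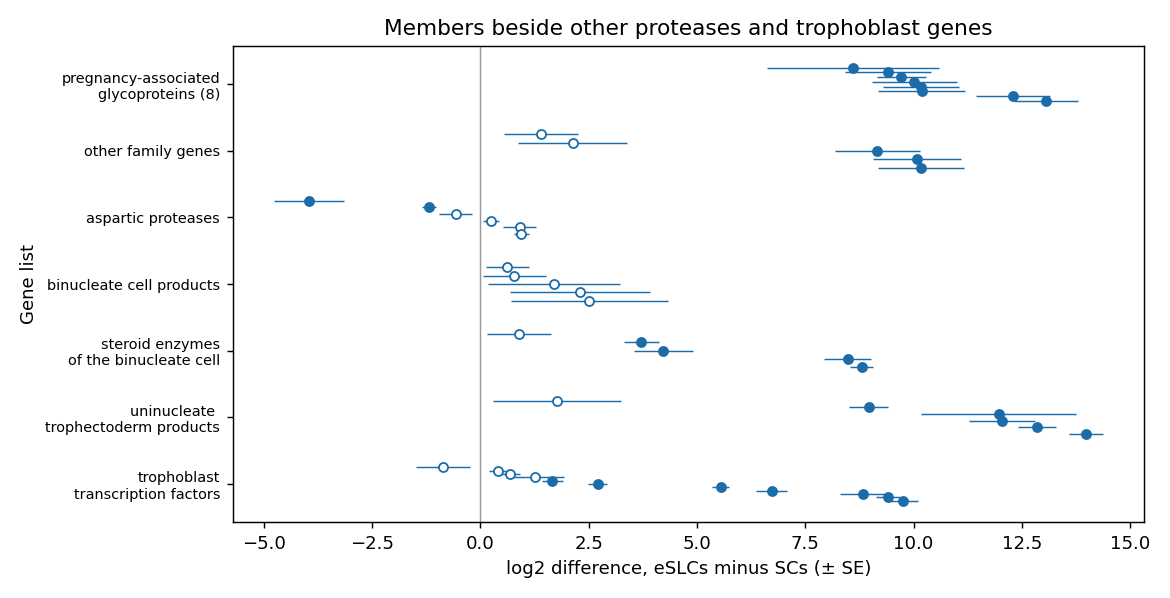
Difference of the log2 normalised signal between eSLCs and SCs for each tested gene of 7 lists, with points for the fitted difference and bars for its SE (6 eSLC and 2 SC arrays). Filled points were called, and values of genes at the floor in SCs depend on that floor. All 8 PAG members lie above 8.5, beside 0 called genes among the 5 binucleate cell products tested.

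For each member, the genes outside the family with the most similar profile over the 6 eSLC arrays were listed, at most 3, out of 9864 genes. With 6 points many genes come close: r exceeded 0.95 with 27 to 140 genes per member, so the names are a description of these arrays. DAZAP2 came closest to PAG7 (r = 0.999) and was also on the list of PAG6. CRH, the corticotropin-releasing hormone gene, came first for PAG6 (r = 0.997) and PAG12 (r = 0.995), at a signal of 36.1 to 149, and PTDSS1 second for both. Closest to PAG2 were R3HDM2, CDK2 and PIAS4, to PAG4 ARHGAP1, DERA and ANPEP, to PAG5 SUB1 and AHCYL2, to PAG8 ARNT, GABARAP and SYNGR1, and to PAG11 RNF11, VASN and KLHL42. The lists of PAG7 and PAG12 were completed by ESYT1 and AMDHD1, and by NACC1. ANPEP had the widest range of these genes, from 449 to 5032, and most of the others varied less over the lines than the member they resembled.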

How the data were processed

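The authors quantified 8 one-colour Agilent bovine arrays with Feature Extraction and deposited the scanner output, linear signal intensity per spot with no normalization between arrays, and a series table of normalised intensity made with GeneSpring GX. The background-subtracted signal was used here. Control spots and outlier spots (1 to 11 per array) were left out, spots of a probe were averaged, each array was divided by its 75th percentile (set to 1000), raised to a floor of 13.3, the highest of the arrays' lowest signals well above background, and taken to log2. Accessions were matched without version to the RefSeq table (ARS-UCD2.0), which named 26731 probes. The arrays were designed on another build, so no coordinates are given. PAG1 by symbol is another gene on another chromosome and was left out of the family. The brightest probe stood for a gene.

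Any gene marked well above background on both arrays of 1 condition or more entered the test, limma 3.58.1 in R 4.3.3 with a mean for each condition over all 8 arrays, with Benjamini-Hochberg adjustment. This step was first tested on simulated data. Summaries and figures were made with pandas 2.3.3 and matplotlib 3.10.9. The alternatives were other scalings, signals, filters, floors, probes, tests and arrays left out. Members and gene lists were chosen with earlier results of these data known. Named are all members, the 2 called genes with the largest difference in each list, and the 3 genes closest to each member. Some genes that this rule names are not reported here. The other genes and values named, such as PRP2 and PRP4, were chosen after their values were seen.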

Additional observations from a re-analysis of the deposited data

How the results depend on the processing

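In each of the 4 comparisons with SCs, 8 members were called higher. With the processed signal the count was 1 in each (1 for eSLCs, 1 for IVP-, 1 for NT- and 1 for PA-eSLCs), and the log2 difference of PAG4 was -0.14 and that of PAG7 -0.20. Over all genes the processed signal called 271 of 10533 higher for eSLCs, where the main fit called 2155 of 10957. With genes well above background on all 8 arrays the count of members was 1 in each, since that filter leaves PAG8 alone among them. With the methods' t-test after adjustment it was 2 for IVP- and 0 for NT-eSLCs (8 for NT-eSLCs and 7 for IVP-eSLCs before adjustment). Over all 10957 genes that adjusted t-test called 433 higher for IVP- and 149 for NT-eSLCs, where limma called 1938 and 1733. For eSLCs against SCs, 6 members were called with the dimmest probe of each, and 7 or 8 under every setting other than these 3 (the processed signal, the filter on all 8 arrays and the dimmest probe). PAG5 was the member lost most often. Normexp on the mean signal was not run, since the files lack that column, and normexp on the median signal, added after seeing the data, called 8 members for eSLCs. Median and quantile scaling kept I9 and N2 highest in 23 of 25 member probes and the authors' normalised table in 21, and the F test over the origins called 0 members under each setting. No paired analysis was possible because GEO's labels give every sample the replicate number 1, so that no number sets apart pairs. The slide as a block called 8 members for eSLCs, 7 for IVP-, 8 for NT- and 7 for PA-eSLCs. Depth limits the SC side: signals below the mark give bounds only.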
